A study of Homo sapiens with 4 samples.

Results

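The protein disulfide isomerase (PDI) family was examined through 10 genes, P4HB, PDIA3, PDIA4, PDIA5, PDIA6, TXNDC5, TXNDC11, TXNDC12, TMX1 and TMX3, picked by symbol from a table of 25737 listed genes. The choice was made with earlier results of these data known. All 10 had at least 1 read, and 7 had enough reads to enter the test, which covered 4517 genes. The cells were labelled SKOV-3, a human ovarian cancer line, and were given either the solvent DMSO (2 libraries) or 40 µM rosmarinic acid methyl ester (RAME, a plant phenolic ester) for 24 h (2 libraries). The labels name no genetic change in either group and do not say whether libraries of a group came from separate cultures, so p-values here reflect the scatter of these libraries alone, which may be technical. The study asked which genes RAME changes in ovarian cancer cells. RNA was read from the 3′ end of polyadenylated transcripts with a QuantSeq kit.

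PDI family proteins work in the endoplasmic reticulum (ER), the compartment where secreted and membrane proteins fold. They carry domains of the thioredoxin fold, most with a pair of cysteines that pass disulfide bonds to client proteins, rearrange wrong bonds or reduce them. Oxidases of the ERO1 family take the electrons back from PDI, and chaperones such as HSPA5 (BiP), calnexin and calreticulin bring clients to several members. In human cells, genes of ER chaperones and several PDI genes are known targets of the unfolded protein response, which cells start when unfolded proteins build up in the ER.

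With RAME, 4 of the 7 tested members rose: PDIA4 (12.9-fold), P4HB (4.5-fold), PDIA3 (3.37-fold) and PDIA6 (2.12-fold). None of the 7 fell by the edgeR test, and 0 had an unadjusted p under 0.05 in that direction. How many of all tested genes had such a p was not counted. DESeq2 and limma-voom also called 4 higher and 0 lower. PDIA5, TXNDC11 and TMX3 did not pass the test, and TXNDC5, TXNDC12 and TMX1 had too few reads for it. Of all tested genes, 6.46% were called higher and 7.08% lower. Because the members were chosen with earlier results of these data known, setting them beside these shares is a description and not a test. The median log2 fold change was 1.07 over the 7 tested members and 0.01 over all tested genes. The median of the members is the value of PDIA6 itself, and so shares the limit of that gene given below. Both RAME libraries lay above both DMSO libraries in 4 of the 7 members, against 31.2% of all tested genes, and below them in 1 member, against 29.5%. The rise of PDIA6 carries a limit: its reads were almost the same as those of an overlapping gene, and its call was lost in several alternative analyses.

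The libraries held 2306379 and 2543566 reads assigned to genes with DMSO and 1441575 and 1777782 with RAME, and 8052 to 8708 genes had a read. The labelled cell type could not be recognised from its markers: of 13 epithelial and ovarian line markers, 5 were listed at 0 in all libraries, among them ERBB2, EPCAM and KRT7, and the 13 together had 14 to 28 reads per library. PAX8 alone passed the low-count filter, with 19, 18, 24 and 9 reads in DMSO 1, DMSO 2, RAME 1 and RAME 2. SKOV-3 is known for high ERBB2, so its 0 reads go against the label, yet TXN, which nearly every cell uses, also had only 4, 0, 0 and 5 reads. Markers of other cell types were as scarce, with summed reads per library of 0 to 2 for lymphoid and myeloid cells, 0 to 1 for endothelium and 1 to 8 for fibroblasts. In bulk RNA, fewer cells of a type and less RNA per cell cannot be told apart.

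The promoters of the members whose reads rose are shown first, so that the start sites of genes that rose together can be compared. RefSeq promoters (GRCh38.p14, 250 bases before to 50 bases after a start) were present for 9 members in 13 entries, and PDIA3 was not among them. An ER stress response element (ERSE), written here as CCAAT and CCACG with 9 bases between on either strand, occurred in 27 of 35116 promoters (0.0769%) and, among the members, in PDIA6 only. The promoters below run 5′ to 3′ on the gene's strand. Capitals mark CCAAT or its reverse complement ATTGG, and in PDIA6 the whole ERSE, which spans positions -86 to -68, with the start as position 0.
PDIA6 promoter, chr2:10812736-10813035, minus strand: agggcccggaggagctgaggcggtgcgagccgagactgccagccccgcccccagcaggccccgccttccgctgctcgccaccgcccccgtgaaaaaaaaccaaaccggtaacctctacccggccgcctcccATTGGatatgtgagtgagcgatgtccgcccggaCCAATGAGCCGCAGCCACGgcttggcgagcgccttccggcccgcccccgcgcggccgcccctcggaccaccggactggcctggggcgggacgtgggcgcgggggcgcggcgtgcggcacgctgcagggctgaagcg
PDIA4 promoter, chr7:149028441-149028740, minus strand: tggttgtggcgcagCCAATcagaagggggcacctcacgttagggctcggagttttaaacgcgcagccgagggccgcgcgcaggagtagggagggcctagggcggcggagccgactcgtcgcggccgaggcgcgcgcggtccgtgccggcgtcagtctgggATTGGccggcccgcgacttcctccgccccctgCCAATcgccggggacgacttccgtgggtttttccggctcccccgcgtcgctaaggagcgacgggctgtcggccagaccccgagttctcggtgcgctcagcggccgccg
P4HB promoter, chr17:81860486-81860785, minus strand: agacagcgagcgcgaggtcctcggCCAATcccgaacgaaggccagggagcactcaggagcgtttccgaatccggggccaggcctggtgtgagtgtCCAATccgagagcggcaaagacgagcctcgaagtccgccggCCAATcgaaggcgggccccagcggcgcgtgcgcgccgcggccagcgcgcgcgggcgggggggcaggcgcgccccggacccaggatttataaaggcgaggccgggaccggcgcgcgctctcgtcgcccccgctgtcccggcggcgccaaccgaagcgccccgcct
CCAAT boxes on either strand numbered 2 in this PDIA6 promoter, 3 in this PDIA4 promoter and 3 in that of P4HB. Another PDIA6 entry (chr2:10832436-10832735) held no CCAAT box and no ERSE, and another PDIA4 entry (chr7:149025260-149025559) held 1 box. Which start the cells used was not measured. The CCAAT search was added after the sequences had been seen, and 12155 of the 35116 promoters (34.6%) held at least 1 such box, against 6 of the 13 entries of the members. A CCAAT box that belongs to an ERSE was counted in both searches.

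The core of the unfolded protein response element (UPRE), TGACGTGG on either strand, occurred in 256 promoters (0.729%), among them those of TXNDC5 and TXNDC11. TXNDC5 had too few reads for the test, and TXNDC11 was tested and not called. Short windows of these promoters are shown with the core in capitals. 
TXNDC5, from the promoter at chr6:7910028-7910327, minus strand: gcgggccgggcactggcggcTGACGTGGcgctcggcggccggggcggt
TXNDC11, from the promoter at chr16:11742808-11743107, minus strand: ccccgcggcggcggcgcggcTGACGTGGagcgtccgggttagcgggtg
The core lay at -92 to -85 in TXNDC5 and at 5 to 12 in TXNDC11. ERSE-II, written as ATTGG and CCACG with 1 base between, was found in 19 promoters (0.0541%). The C/EBP-ATF element TGATGNAA was found in 1270 (3.62%) and the heat shock core, GAA, TTC and GAA with 2 bases between each, in 172 (0.49%). None of the 9 members held any of these 3 motifs in the windows searched, on either strand. A match is a description of letters and not a site.

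PDIA4 is a soluble ER enzyme with several thioredoxin domains that is found in complexes with HSPA5. Its gene lies on the minus strand of chr7:149003062-149028641 (GRCh38, GENCODE 29, as for all gene positions here). It had 72 and 41 reads with DMSO and 390 and 517 with RAME. As CPM, the reads scaled to a common library size by TMM, these were 30.3 and 15.8 with DMSO and 283 and 301 with RAME. The RAME libraries lay close together and far above both DMSO libraries, which differed from each other by 1.92-fold. The pooled CPM of RAME was 12.9 times that of DMSO, with a 95% exact binomial interval of 10.6 to 15.8 that covers counting error only. The edgeR quasi-likelihood log2 fold change was 3.67 (SE 0.39, adjusted p = 0.000348).

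P4HB is the founding protein disulfide isomerase and also the beta subunit of the collagen prolyl 4-hydroxylases and a subunit of the microsomal triglyceride transfer protein. The gene lies on the minus strand of chr17:81843159-81860694. Its reads were 197 and 322 with DMSO and 780 and 672 with RAME, or 82.8, 124, 567 and 391 CPM. The groups did not overlap, and within each group the libraries differed by 1.5-fold (DMSO) and 1.45-fold (RAME). The pooled ratio was 4.5 (95% interval 4.07 to 4.98), and the edgeR log2 fold change was 2.21 (SE 0.34, adjusted p = 0.00411).

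PDIA3 works with calnexin and calreticulin on glycoproteins and takes part in the loading of peptides onto MHC class I. The gene lies on the plus strand of chr15:43746392-43773279. Its reads were 1297 and 1328 with DMSO and 2577 and 2916 with RAME, or 545, 511, 1872 and 1696 CPM. The replicates lay within 1.07-fold (DMSO) and 1.1-fold (RAME) of each other, and the groups did not overlap. The pooled ratio was 3.37 (95% interval 3.21 to 3.53), and the edgeR log2 fold change was 1.76 (SE 0.27, adjusted p = 0.00362).

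A near copy of PDIA3 held more reads than PDIA3 itself. PDIA3P1, annotated as a transcribed processed pseudogene at chr1:147172744-147179622, had 1887 and 2690 reads with DMSO and 7702 and 7032 with RAME, which was 59.3%, 66.9%, 74.9% and 70.7% of the reads of both genes. Of the 1436 stretches of 75 bases, the read length, in a 1510-base PDIA3P1 transcript, 426 (29.7%) occurred without a mismatch in a PDIA3 transcript and 1282 (89.3%) with at most 2 mismatches. The sources used here do not say how reads that fit both were assigned, and the split between the pair is uncertain. PDIA3P1 was also called higher by edgeR (log2 fold change 2.40, SE 0.29, adjusted p = 0.000796). With the reads of both summed, the log2 fold change was 2.20 (edgeR adjusted p = 0.00086).

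PDIA6 binds HSPA5 and acts on folding clients and on sensors of the unfolded protein response. The gene lies on the minus strand of chr2:10783391-10837977. It had 17875 and 20466 reads with DMSO and 20060 and 30369 with RAME, or 7513, 7876, 14570 and 17664 CPM. The read numbers of DMSO 2 and RAME 1 were close, and the groups came apart in CPM because the RAME libraries were smaller. The pooled ratio was 2.12 (95% interval 2.09 to 2.14), and the edgeR log2 fold change was 1.07 (SE 0.24, adjusted p = 0.0166).

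Nearly the same reads were listed for ATP6V1C2, a subunit gene of the vacuolar proton pump whose end overlaps that of PDIA6 by 1720 bases on the opposite strand. ATP6V1C2 had 17865, 20426, 20010 and 30313 reads in DMSO 1, DMSO 2, RAME 1 and RAME 2, so that PDIA6 exceeded it by 10, 40, 50 and 56 reads. The sources used here name neither the counting tool nor its strand setting, and from these counts the reads of the pair cannot be told apart. With only the excess reads in place of PDIA6, the edgeR log2 fold change was 1.80 (adjusted p = 0.0635). These few reads are no measure of PDIA6, so that run cannot decide its call. On all its listed reads, the call of PDIA6 was lost without DMSO 1 (log2 fold change 1.03) and without RAME 2 (0.92). It was lost with the replicate number as a block (1.06, adjusted p = 0.0519). When the low-count filter was redone on the 3 libraries left, PDIA6 passed without DMSO 1 (adjusted p = 0.0394) and did not without RAME 2 (adjusted p = 0.117). P4HB, PDIA3 and PDIA4 stayed called in all 15 alternative runs examined for each. Their log2 fold changes were 1.91 to 2.55, 1.66 to 1.83 (on the reads of PDIA3 alone) and 3.27 to 4.20.

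**Figure D1:**
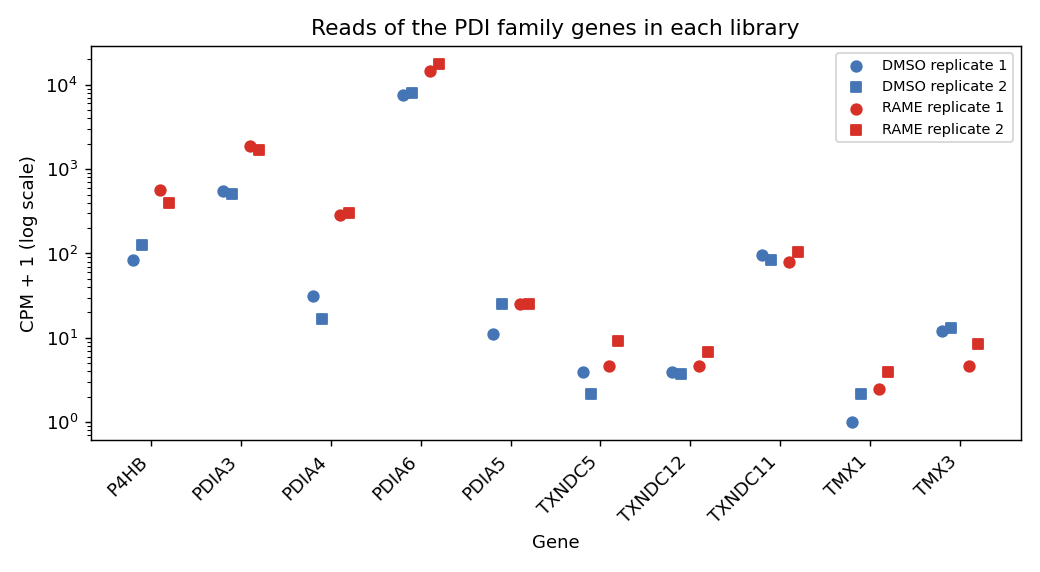
TMM-scaled CPM plus 1 on a log axis for the 10 PDI family genes, with blue points for the 2 DMSO libraries and red points for the 2 RAME libraries (circles replicate 1, squares replicate 2). Both red points lie above both blue points for P4HB, PDIA3, PDIA4 and PDIA6, an order shown by 31.2% of all tested genes. The points of TXNDC11 and PDIA5 overlap, and the red points of TMX3 lie below the blue. TXNDC5, TXNDC12 and TMX1 also have both red points above, but rest on at most 14 reads in a library.

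**Figure D2:**
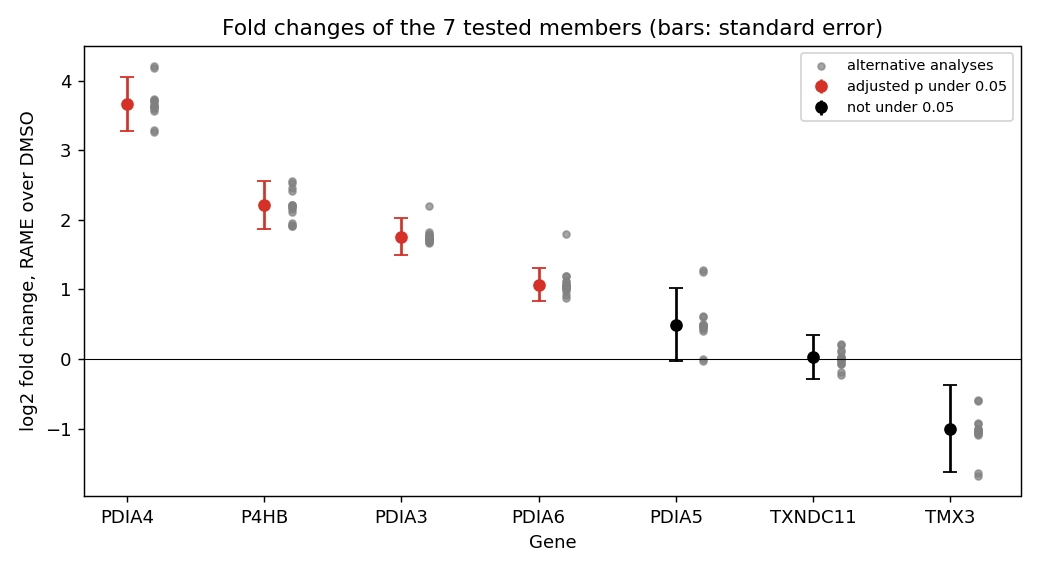
edgeR log2 fold change of RAME over DMSO for the 7 tested members, with the standard error as bars, and the values under the alternative analyses in grey, including PDIA3 summed with PDIA3P1 and PDIA6 less ATP6V1C2. PDIA4 stands at 3.67, P4HB at 2.21, PDIA3 at 1.76 and PDIA6 at 1.07 (red, adjusted p under 0.05), and PDIA5, TXNDC11 and TMX3 (black) did not pass.

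**Figure D3:**
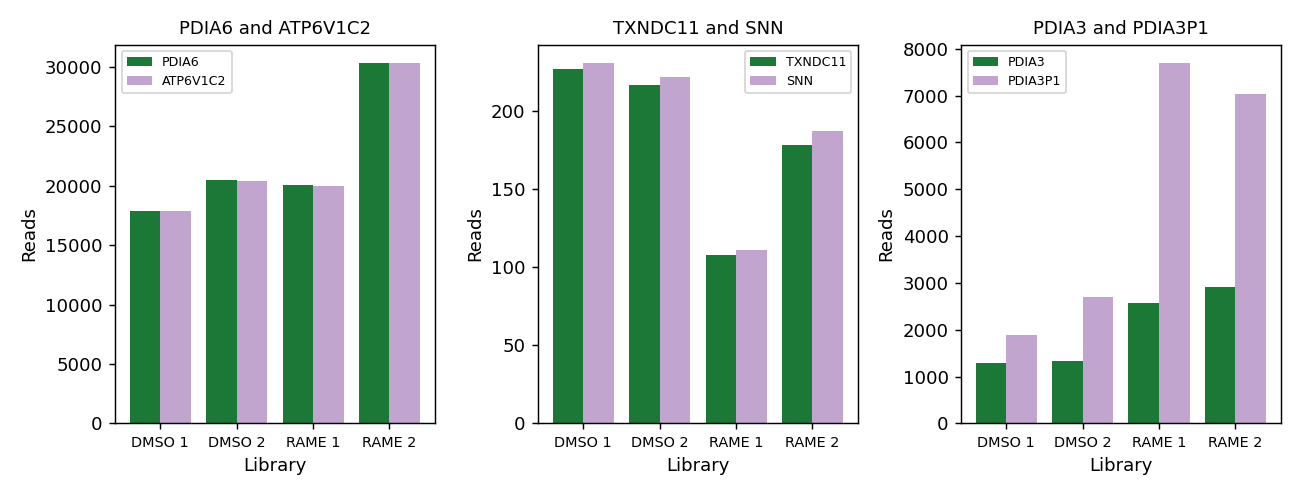
Reads of 3 PDI family genes (green) beside a gene that overlaps or resembles each (violet) in the 4 libraries, on linear axes that start at 0. The bars of PDIA6 and ATP6V1C2 are almost equal in each library, those of TXNDC11 and SNN differ by 3 to 9 reads, and PDIA3P1 exceeds PDIA3 in all 4 libraries.

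The remaining tested members did not pass. PDIA5, a soluble ER enzyme linked to activation of the stress sensor ATF6 in human cells, lies at chr3:123067062-123225227 on the plus strand. It had 24 and 63 reads with DMSO and 33 and 42 with RAME, or 10.1, 24.2, 24.0 and 24.4 CPM. DMSO 1 was the low library, and the other DMSO library lay at the level of both RAME libraries, so the groups overlapped. The pooled ratio was 1.39 (95% interval 1.0 to 1.91), and the edgeR log2 fold change was 0.49 (SE 0.52, adjusted p = 0.565). Without DMSO 1 it was -0.002 (adjusted p = 0.999), so its direction rested on that library.

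TXNDC11 is a membrane-bound thioredoxin-fold protein of the ER that binds the DUOX oxidases. Its gene lies on the minus strand of chr16:11679080-11742878. Its reads were 227 and 217 with DMSO and 108 and 178 with RAME, or 95.4, 83.5, 78.4 and 104 CPM. The RAME libraries lay on either side of both DMSO libraries. The pooled ratio was 1.04 (95% interval 0.89 to 1.2), and the edgeR log2 fold change was 0.03 (SE 0.32, adjusted p = 0.969), with a sign that turned under DESeq2, both other scalings, no filter and 2 of the 4 single-library omissions. SNN, a small gene whose end overlaps that of TXNDC11 by 80 bases on the opposite strand, had 231, 222, 111 and 187 reads, so these rows too cannot be told apart.

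TMX3, a membrane-bound member at chr18:68673688-68715298 on the minus strand, was the only tested member lower in both RAME libraries. It had 26 and 31 reads with DMSO and 5 and 13 with RAME, or 10.9, 11.9, 3.63 and 7.56 CPM. The pooled ratio was 0.508 (95% interval 0.281 to 0.876), but the RAME libraries differed by 2.08-fold. The edgeR log2 fold change was -0.999 (SE 0.63, adjusted p = 0.306), which did not pass.

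The last 3 members had too few reads for the filter, and their fits come from a separate analysis of all 11683 genes with a read. TXNDC5, a soluble enzyme known for fast introduction of disulfides, at chr6:7881517-7910814 on the minus strand, had 7, 3, 5 and 14 reads in DMSO 1, DMSO 2, RAME 1 and RAME 2. Its pooled ratio was 3.06 (95% interval 1.35 to 7.36), and the unfiltered edgeR log2 fold change was 1.48 (SE 1.00, adjusted p = 0.581). The readthrough transcript BLOC1S5-TXNDC5, which shares its end, was listed at 7, 3, 2 and 9 reads. BMP6, which ends 94 bases away on the opposite strand, was listed at the same 7, 3, 2 and 9 reads. TXNDC12, a small soluble protein at chr1:52020131-52056171 on the minus strand, had 7, 7, 5 and 10 reads, with a pooled ratio of 1.72 (95% interval 0.776 to 3.85). TMX1, a membrane-bound reductase at chr14:51240162-51257546 on the plus strand, had 0, 3, 2 and 5 reads, with a pooled ratio of 3.75 (95% interval 0.857 to 22.5). Neither passed the unfiltered edgeR test (adjusted p = 0.764 and 0.731). In all 3 genes both RAME libraries lay above both DMSO libraries in CPM, on 10 to 29 reads per gene over the 4 libraries. Of all tested genes 31.2% showed this order, and the share among genes below the filter was not counted. With so few reads, the order says little about these genes.

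As a sum, the family took 0.856% and 0.884% of all assigned reads with DMSO and 1.66% and 1.95% with RAME. The summed CPM were 8293, 8652, 17410 and 20200, a 2.22-fold ratio of the group means, and no p is given for a sum over chosen genes. PDIA6 alone held 90.6% and 91.0% of the family's reads with DMSO and 83.7% and 87.4% with RAME. Without PDIA6, whose reads cannot be told apart from those of ATP6V1C2, the sums were 780.5, 775.5, 2836 and 2540 CPM, a ratio of 3.46. These are shares of reads and not of protein.

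The shares of single members in the family without PDIA6 were as follows. PDIA3 held 69.8% and 65.9% of those reads with DMSO and 66.0% and 66.8% with RAME. The share of PDIA4 was 3.88% and 2.03% with DMSO and 9.99% and 11.8% with RAME, higher in both RAME libraries. That of TXNDC11 was 12.2% and 10.8% with DMSO and 2.77% and 4.08% with RAME, lower in both, while its own CPM overlapped between the groups (pooled ratio 1.04) and the sum it is divided by rose. P4HB, at 10.6%, 16.0%, 19.97% and 15.4%, overlapped between the groups.

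Proteins that work with the PDI family were the list in which most tested genes rose. This list and those below were also chosen with earlier results of these data known, so their counts are descriptions. Of 16 listed partners 7 were tested, 5 were called higher and 0 lower (edgeR), with a median log2 fold change of 1.56. At an unadjusted p under 0.05, 7 were higher and 0 lower, and DESeq2 and limma-voom each called 5 higher and 0 lower. The share of all tested genes under that unadjusted threshold was not counted. The unadjusted counts of the family, this list and the others therefore have no background to be judged against. Without the low-count filter 6 partners were called, and the added one was lower with RAME. This was CNPY2, an ER protein with a saposin-like fold, named after its values were seen, with 49 and 11 reads with DMSO and 1 and 3 with RAME (unfiltered edgeR log2 fold change -3.25, SE 0.92, adjusted p = 0.0101). Most of its reads lay in DMSO 1, and its CPM differed by 4.86-fold between the DMSO libraries. That limits what its call can show, and no single-library omission is given for it. HSPA5 (BiP), the HSP70 chaperone of the ER, had 5331 and 9011 reads with DMSO and 49841 and 46966 with RAME. Its edgeR log2 fold change was 3.48 (SE 0.30, adjusted p = 8.64e-05), and the groups lay far apart.

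Calreticulin (CALR), the soluble lectin chaperone to which PDIA3 binds, had 2318, 3150, 4590 and 5346 reads in DMSO 1, DMSO 2, RAME 1 and RAME 2 (log2 fold change 1.56, SE 0.26, edgeR adjusted p = 0.00622). HSP90B1, the HSP90 of the ER, had 2635, 1979, 3104 and 6144 reads (1.64, SE 0.31, adjusted p = 0.0104). HYOU1, which exchanges nucleotide on HSPA5, had 1573, 1957, 2367 and 3815 (1.48, SE 0.28, adjusted p = 0.00962). These 3 genes, like HSPA5, kept their calls in all 11 alternative runs examined for each. For genes outside the family, omissions with the filter redone were not examined gene by gene. The crossed pairing was not examined gene by gene for any gene, members of the family included.

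P4HA1, the catalytic subunit that joins P4HB in collagen prolyl 4-hydroxylase, had 61 and 53 reads with DMSO and 134 and 120 with RAME. Its edgeR log2 fold change was 1.86 (SE 0.38, adjusted p = 0.0132), and it no longer passed without RAME 1 (1.60, adjusted p = 0.0718). The other tested partners, DNAJB11, a cochaperone of HSPA5, and CANX (calnexin), the membrane-bound lectin chaperone, had log2 fold changes of 0.90 and 0.96 (edgeR adjusted p = 0.0806 and 0.0792). DNAJB11 was the most read partner that did not pass, and CANX is named because it was the only other one, after its values had been seen.

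**Figure D4:**
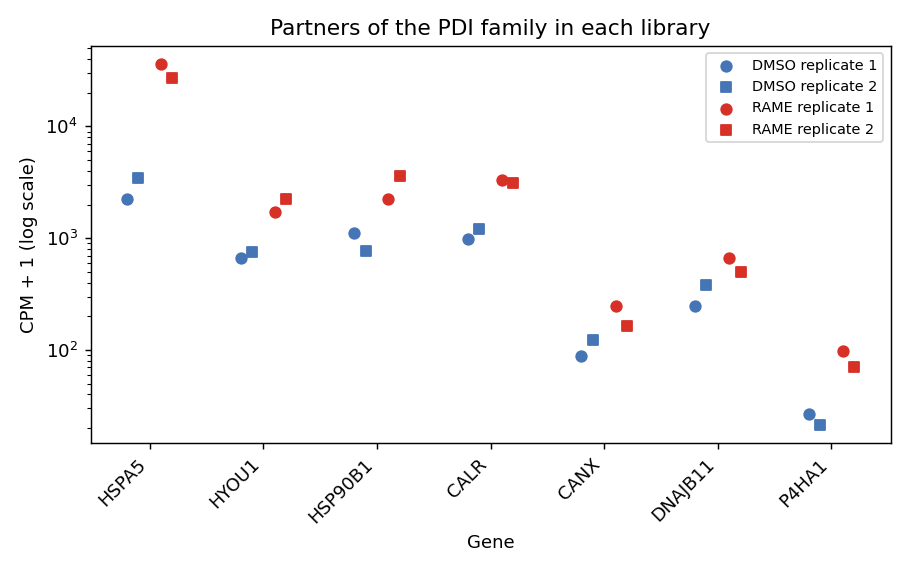
TMM-scaled CPM plus 1 on a log axis for the 7 tested partners of the PDI family in the 2 DMSO (blue) and 2 RAME (red) libraries, circles for replicate 1 and squares for replicate 2. Both red points lie above both blue points for each gene, as in 31.2% of all tested genes. The gap is widest for HSPA5, and DNAJB11 and CANX were not called by the test.

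The enzymes that supply oxidising power gave no call. Of 9 listed oxidases, peroxidases and electron suppliers, 3 were tested and 0 were called by edgeR, DESeq2 or limma-voom, with a median log2 fold change of -0.63. At an unadjusted p under 0.05, 0 were higher and 1 lower. VKORC1L1, a vitamin K epoxide reductase that can take electrons from PDI and was the most read of the list, had 114, 137, 94 and 103 reads (log2 fold change 0.35, edgeR adjusted p = 0.532). PRDX4, the ER peroxiredoxin that also reoxidises PDI, had 96 and 53 reads with DMSO and 17 and 21 with RAME. Its log2 fold change was -1.30 (edgeR adjusted p = 0.113), and among the runs examined it passed only without DMSO 2 (-1.71). It is named after its values were seen, as is ERO1A, the main oxidase of PDI, which had 8, 1, 1 and 9 reads, too few to test.

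Of 12 other thioredoxin-fold proteins of the ER, 6 had no read and 2 were tested, with 0 called by edgeR, DESeq2 or limma-voom, 0 at an unadjusted p under 0.05 and a median of -0.12. DNAJC10, a reductase with a J domain, had 28, 22, 12 and 22 reads (log2 fold change 0.10, edgeR adjusted p = 0.933).

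Of 9 sensors and factors of the unfolded protein response, 4 were tested and 0 were called by edgeR, DESeq2 or limma-voom, with a median log2 fold change of 0.31. At an unadjusted p under 0.05, 1 was higher and 0 lower. The higher one was EIF2AK3, with 128 and 168 reads with DMSO and 132 and 192 with RAME, named after its values were seen. Its log2 fold change was 0.81 (edgeR adjusted p = 0.114), and 0.68 to 0.95 over the 11 alternative runs examined. XBP1, whose spliced form is a transcription factor of ER stress, had 1416 and 2165 reads with DMSO and 878 and 1061 with RAME, or 595, 833, 638 and 617 CPM (log2 fold change -0.19, edgeR adjusted p = 0.705). The groups of XBP1 overlapped, and splicing cannot be read from these counts. For DDIT3 and ATF4 the outcome rested on single libraries. Among the runs examined, DDIT3, a factor of late ER stress, passed only without DMSO 1 (1.44), and ATF4 only without DMSO 2 (-1.61). Both are named after their values were seen.

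Of 15 thioredoxin-fold and partner genes outside the ER, 6 were tested, 1 was called higher and 0 lower by edgeR, as by DESeq2 and limma-voom, with a median log2 fold change of 0.10 and 1 gene lower at an unadjusted p under 0.05. TXNRD1, the cytosolic thioredoxin reductase, had 0 and 3 reads with DMSO and 16 and 13 with RAME. It passed the low-count filter only through the RAME libraries, where it was high, which limits what its call can show. Its pooled ratio was 15.5 (95% interval 4.82 to 79.8), and its log2 fold change was 3.86 (SE 0.99, edgeR adjusted p = 0.0285). The call was lost without DMSO 1 (log2 fold change 2.97, adjusted p = 0.0757) and without RAME 1 (3.54, adjusted p = 0.118). Without DMSO 2, which left 0 reads with DMSO, the fitted value was 7.13 and is no measure of size. TXNL1, the most read of the rest, had 259, 292, 219 and 255 reads (0.47, edgeR adjusted p = 0.308).

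Finally, all genes that averaged 20 or more reads were ranked by how closely their log2 CPM, centred over the 4 libraries, followed the summed family, by Euclidean distance. The nearest 5 were AZIN1 (distance 0.0367), ATP6V1C2 (0.0985), NXF1 (0.109), CLIP1 (0.115) and STK4 (0.137). AZIN1, an inhibitor of antizyme, had 989 and 1136 reads with DMSO and 1194 and 1791 with RAME. Most reads of the summed family are those of PDIA6, and the reads listed for ATP6V1C2 were nearly the same. The order rests on 4 libraries and is a description.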

How the data were processed

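The authors made QuantSeq 3′ libraries, sequenced single-end reads of 75 bases and aligned them with Bowtie2. The submitters' processing notes name hg19, and the sources used here give no aligner version, annotation, counting tool or strand setting. The deposited values analysed here are the authors' raw read counts, 1 per gene and library. Also in the table, and not used, are 4 columns of normalized log2 values, their group means, and the authors' fold changes and p-values.

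The counts were tested in R 4.3.3 with edgeR 4.0.16: filterByExpr (min.count 10, min.total.count 15), TMM, robust glmQLFit and glmQLFTest, with Benjamini-Hochberg adjustment over 4517 genes and a threshold of 0.05. The replicate number was not a term. The biological coefficient of variation was 29.9%. SE is the fold change over the root of F. Pooled ratios use TMM-scaled totals, with exact binomial intervals (scipy 1.17.1) that cover counting error only, since reads carry no molecular identifiers. With 2 against 2 libraries the smallest exact permutation p is 0.333, so none was used. The code was tested on simulated counts.

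Gene positions come from GENCODE 29 (GRCh38) and were not used for counting. The members and gene lists were chosen with earlier results of these data known. Named are all members, each list's called genes and its most read other gene, the 5 genes most like the summed family, and others where said. Alternatives were DESeq2 1.42.0, limma-voom (limma 3.58.1), RLE or library totals, no filter, the replicate block, single-library omissions and an adjusted p under 0.1. Added after seeing the data were omissions with the filter redone, rows with nearly equal reads dropped (neighbours within 5 places that differ by at most 10% plus 1 read), PDIA3 with PDIA3P1, PDIA6 less ATP6V1C2, the family without PDIA6 and a crossed pairing. Omissions were first run with the filter redone and then changed to keep the tested genes fixed, after those values had been seen.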

Additional observations from a re-analysis of the deposited data

How the results depend on the processing

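The number of called genes (612) was 437 with the replicate block, 663 with DESeq2, 438 with limma-voom, 787 without a filter and 1027 at an adjusted p under 0.1. Leaving out a library gave 323 (DMSO 1) to 857 (DMSO 2) genes, or 309 (RAME 1), 368 (DMSO 1) and 987 (DMSO 2) with the filter redone. The numbers were not taken as pairs, since no source used here says that they pair the libraries. Over 4517 genes, deviations from the group mean correlated at -0.34 for same-numbered libraries and at 0.34 for crossed numbers. With 2 libraries per group these are the same value with opposite signs. What lies behind the crossed correlation was not tested. With the numbers crossed as the block, 1787 genes were called. Called members of the PDI family numbered 3 in place of 4 with the replicate block, without DMSO 1, without RAME 2 (also with the filter redone) and with PDIA6 less ATP6V1C2, each time through PDIA6. Over the single-library omissions the count was 3 to 4. The called oxidases (0) were 0 to 1, the called sensors and factors of the unfolded protein response (0) were 0 to 1, and the called thioredoxin-fold genes outside the ER (1) were 0 to 1. DNAJB11 passed without DMSO 2 (log2 fold change 1.24, edgeR adjusted p = 0.0391) and CANX without RAME 2 (1.24, adjusted p = 0.0472). The log2 ratio of the summed family was 1.15, and 1.79 without PDIA6. Directions turned for these genes, none of them called: PDIA5 without DMSO 1 (-0.002, or -0.029 with the filter redone, and up to 1.26 without DMSO 2); TXNDC11 with DESeq2 and RLE (-0.001 each), library totals (-0.066), no filter (-0.017), without DMSO 2 (-0.066, or -0.045) and without RAME 2 (-0.186, or -0.226), against 0.21 without RAME 1; DNAJC10 without DMSO 2 (-0.118) and without RAME 2 (-0.209), against 0.354 without DMSO 1; XBP1 without DMSO 2 (0.076, against -0.409 without DMSO 1); and ATF4 without DMSO 1 (0.577, against -1.61 without DMSO 2). The causes were not tested. The planned search of protein motifs was not run. TXNDC5, TXNDC12 and TMX1 had only 10 to 29 reads in all.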
